A study of Homo sapiens with 6 samples.

Results

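Kinesins are motor proteins that turn ATP hydrolysis into movement along microtubules or, in some families, into the disassembly of microtubule ends. The kinesin motor genes were taken as the rows of the expression table whose single gene symbol was KIF followed by digits and at most 1 letter, or KIFC followed by a digit. This gave 41 kinesin genes among the 18404 genes measured, 13 of them assigned to mitosis and cytokinesis, 15 to the transport of cargo and 13 to other or mixed roles. The assignment followed textbook roles, but it was made with earlier results of these data known. KIF4B, a near-identical copy of KIF4A, and the pseudogene KIF28P were listed but had no row of their own under this rule.

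The samples were cultures of PC-3, an androgen-independent human prostate carcinoma line, kept in DMEM with 10% FBS. In the menthol group 3 samples received menthol, the cooling compound of mint, dissolved in ethanol, and in the vehicle group 3 samples received ethanol alone, with ethanol at 0.1% in both. The study asked how menthol alters the expression profile of these cells, and no source used here gives the menthol dose or the treatment time. Whether the replicates came from separate cultures is not stated. The p-values therefore rest on the spread among these 6 arrays, and that spread may be technical.

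Kinesin heavy chains share an ATP-driven motor domain and differ in the tails that choose what they carry. During mitosis some of them push spindle poles apart, move chromosomes, trim microtubule ends or build the midzone at which the cell divides. In interphase others carry vesicles, mitochondria and ciliary components. The genes of mitotic motors are transcribed mostly late in the cell cycle, under the MuvB complex with B-MYB and FOXM1, which binds the cell cycle genes homology region, and NF-Y, which binds CCAAT.

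Each array held 32321 probesets, with median intensities between 47.4 and 49.1. Replicates had a median SD of 0.10 (log2) with menthol and 0.08 with vehicle. The epithelial keratin and adhesion genes KRT8, KRT18, KRT19 and EPCAM summed to 9847 to 10108 intensity units with menthol, against 5800 to 6140 units with vehicle, and 4 of 4 rose. The prostate luminal genes KLK2 and KLK3 summed to 74.7 to 78.2 with menthol, against 79.4 to 82.5 with vehicle, and did not pass the threshold. None of the marker genes of other cell types was at 0. Of these, 0 of 2 leukocyte genes passed, 2 of 3 fibroblast genes rose (COL1A2 and DCN) and 1 of 3 endothelial genes rose (PECAM1). Over all genes 14.6% were called higher. DCN was dim, at 6.60, 5.93 and 6.52 with menthol, against 5.60, 4.79 and 4.49 with vehicle. The lowest intensity of any probeset was 1.57. The leukocyte, fibroblast and endothelial genes summed to 24.3 to 25.7, 256 to 279 and 83.5 to 90.6 with menthol, in that order. With vehicle the sums were 18.6 to 23.9, 280.2 to 307 and 69.4 to 73.2. The part of these genes in the kinesin results was not tested.

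The promoters of the kinesins are described first. The motif search itself did not use the expression values. The classes, and some of the stretches shown, were chosen with earlier results of these data known. RefSeq promoter windows (GRCh38.p14, 250 bases before to 50 bases after an annotated start) were matched by symbol for 33 of the 41 genes. They were searched on both strands for the cell cycle genes homology region, written TTTGAA or TTCGAA, and for CCAAT, and neither motif contains the other, although their end letters can be shared. TTCGAA reads the same on both strands. The 100 bases before the start are shown for the 6 mitotic kinesins whose homology region lies upstream of the start, and for KIF20A and KIF18B, which fell among the most but lack it there. KIF3B and KIF3C, transport motors that rose, are shown for contrast. The stretches lie at chr11:28108157-28108256 (minus strand) for KIF18A, chr10:92593030-92593129 (plus strand) for KIF11, chrX:70290004-70290103 (plus strand) for KIF4A, chr3:44761694-44761793 (plus strand) for KIF15 and chr16:29790651-29790750 (plus strand) for KIF22. Those of KIF23, KIF20A and KIF18B lie at chr15:69414249-69414348 (plus strand), chr5:138179012-138179111 (plus strand) and chr17:44947774-44947873 (minus strand), and those of KIF3B and KIF3C at chr20:32277551-32277650 (plus strand) and chr2:25982498-25982597 (minus strand). Capitals mark the matches, so that TTCAAA and ATTGG are the same motifs read on the opposite strand.
KIF18A: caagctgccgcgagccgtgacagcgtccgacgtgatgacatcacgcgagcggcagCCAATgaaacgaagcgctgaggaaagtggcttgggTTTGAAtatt
KIF11: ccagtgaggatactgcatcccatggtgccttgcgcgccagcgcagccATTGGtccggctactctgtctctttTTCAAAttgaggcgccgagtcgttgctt
KIF4A: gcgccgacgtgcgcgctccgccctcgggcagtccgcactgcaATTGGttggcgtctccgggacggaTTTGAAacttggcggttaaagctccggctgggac
KIF15: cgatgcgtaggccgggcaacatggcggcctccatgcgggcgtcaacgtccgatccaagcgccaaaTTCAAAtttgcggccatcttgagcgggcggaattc
KIF22: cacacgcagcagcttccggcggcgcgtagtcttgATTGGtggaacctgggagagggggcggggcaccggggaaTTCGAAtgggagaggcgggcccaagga
KIF23: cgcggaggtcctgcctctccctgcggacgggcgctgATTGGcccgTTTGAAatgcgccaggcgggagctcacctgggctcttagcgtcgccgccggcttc
KIF20A: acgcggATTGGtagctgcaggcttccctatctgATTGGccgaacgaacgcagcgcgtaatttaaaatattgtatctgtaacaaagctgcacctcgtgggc
KIF18B: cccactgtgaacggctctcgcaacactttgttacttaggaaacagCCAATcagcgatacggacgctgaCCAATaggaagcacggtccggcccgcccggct
KIF3B: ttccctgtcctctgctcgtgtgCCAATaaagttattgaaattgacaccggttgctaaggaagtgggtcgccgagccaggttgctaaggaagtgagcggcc
KIF3C: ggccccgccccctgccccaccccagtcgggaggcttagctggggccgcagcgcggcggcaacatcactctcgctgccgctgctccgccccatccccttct

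In these stretches the homology region begins 10 bases before the start of KIF18A, 28 before that of KIF11, 34 before that of KIF4A, 35 before that of KIF15, 27 before that of KIF22 and 55 before that of KIF23. KIF14, KIF18B, KIFC1 and KIF20B carry the letters after the start, first at positions 2, 3, 5 and 25. In KIF14 and KIFC1 they are read on the opposite strand. In all, 10 of 13 mitotic kinesins (76.9%) held the letters in a window, against 1 of 11 transport kinesins and 1 of 9 other kinesins (KIF24) with a window, and 19.5% of the 27305 genes in the table. Within 60 bases before to 10 bases after the start the count was 9 of 13 mitotic, 0 of 11 transport and 1 of 9 other kinesins, beside 4.8% of all genes. CCAAT was present in 10 of 13 mitotic, 4 of 11 transport and 3 of 9 other kinesins, beside 39.7% of all genes. KIF20A, KIF2C and KIF2B held no homology region letters in their windows, and KIF20A held a pair of CCAAT boxes beginning 94 and 67 bases before its start. Across the array the shares of genes called lower lay close together. Of the 2480 measured genes with the homology region letters anywhere in a window 13.4% were lower with menthol, beside 15.2% of the 11750 genes without them. Of 606 measured genes with them from 60 bases before to 10 after the start, 15.8% were lower with menthol. This stood beside the same 15.2% of genes without the letters and 14.9% of the 14230 measured genes with a window. Without the kinesins the share near the start was 14.8%, beside 15.2% and 14.9%. A match is a description of the letters in the window and not evidence of binding.

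**Figure D1:**
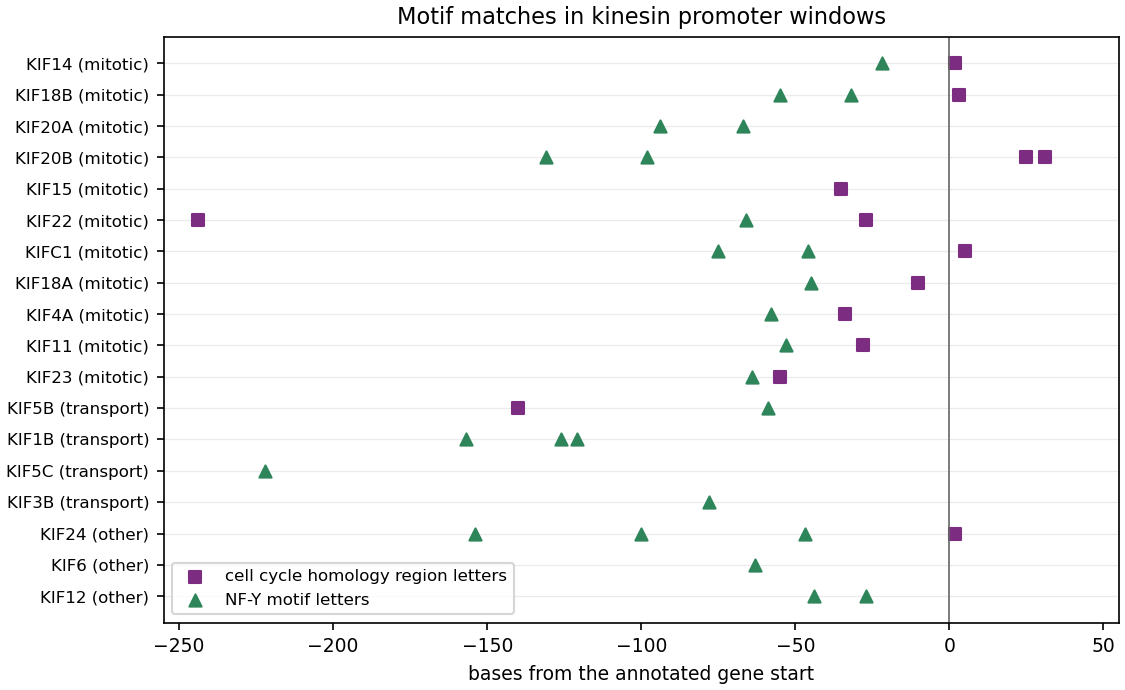
Places of the cell cycle genes homology region letters (squares) and of the CCAAT letters bound by NF-Y (triangles) in the promoter windows of the measured kinesins that hold either; the x axis is bases from the annotated start, and matches from all windows of a gene are drawn in its row. In KIF22 the square 244 bases before a start is the same site as that at 27 bases, seen from a second annotated start. Of the 13 mitotic genes 9 have both motifs, and of the transport genes KIF5B alone has the squares' letters, 140 bases before its start.

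Of the 41 kinesins 18 passed the threshold in either direction, 14 lower and 4 higher with menthol. Over all genes 29.1% passed, and above the median mean intensity, where 26 of the 41 lie, 40.9%. The lower kinesins were mostly mitotic motors. Of 13 mitotic kinesins, 11 passed the threshold as lower (limma, Benjamini-Hochberg adjusted p at most 0.05 over 18404 genes) and 0 as higher, and all 13 had a negative log2 fold change. Over all genes 14.5% were called lower and 14.6% higher. In the brighter part of the array, above the median mean intensity, where 12 of the 13 lie, 23.6% of genes were called lower. The groups did not overlap in the same 11 members, beside 21.7% of all genes and 35% of the brighter genes on the lower side. Among all 41 kinesins the groups stood apart in 17 on the lower and 6 on the higher side, beside 45.3% of all genes and 61.4% of the brighter ones in either direction. The median log2 fold change of the class was -0.54, or 69.0% of the vehicle level, beside a median of 0.03 over all genes. The arrays cannot tell fewer cells late in the cell cycle, mitosis included, apart from less RNA per such cell. Of 4 proliferation genes listed as markers, TOP2A, CCNB1 and MKI67 fell, PCNA was at 0.06 ± 0.07 (adjusted p = 0.518), and their summed intensity was 3865 to 4362 with menthol, against 5157 to 5401 with vehicle. Their part in the kinesin result was not tested.

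The motors of cytokinesis held the largest decrease and also a member that did not pass. KIF14, which recruits citron kinase to the midbody, had intensities of 256, 255 and 278 with menthol, against 465, 443 and 509.6 with vehicle. It was 1.80-fold lower, with a log2 fold change of -0.84 ± 0.08 (SE, n = 3 per group; limma adjusted p = 0.000266). KIF20A, also called MKLP2, carries the chromosomal passenger complex to the anaphase midzone and had 327, 303 and 309 with menthol, against 535, 537 and 562 with vehicle. Every menthol array of both genes lay far below the lowest vehicle array. KIF20A fell by 0.80 ± 0.06 on the log2 scale (adjusted p = 0.000158). KIF20B, a further kinesin-6 motor needed for abscission, measured 86.2, 87.4 and 104 with menthol, against 143, 136 and 159 with vehicle. It fell by 0.66 ± 0.10 (adjusted p = 0.00206), with menthol replicate 3 closest to the vehicle arrays. KIF4A, the chromokinesin that sets midzone length with PRC1 and whose signal could include that of its copy KIF4B, measured 562, 579 and 589 with menthol, against 748, 677 and 821 with vehicle. Its groups did not overlap, with vehicle replicate 2 the nearest of its group to the menthol arrays, and it fell by 0.37 ± 0.08 (adjusted p = 0.0116). KIF23, the motor of the centralspindlin complex, measured 977, 947 and 1148 with menthol, against 1137, 1115 and 1203 with vehicle. Menthol replicate 3 lay above vehicle replicates 1 and 2, and the gene did not pass (log2 fold change -0.17 ± 0.09, 95% interval -0.37 to 0.03, adjusted p = 0.17). Without menthol replicate 3 it passed at -0.26 ± 0.07 (adjusted p = 0.0352).

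Motors that shape the spindle were lower as well. KIF11, known as Eg5, slides antiparallel microtubules to separate the poles and measured 410.0, 438 and 427 with menthol, against 503, 552 and 598 with vehicle. Its groups stood apart and it fell by 0.37 ± 0.08 on the log2 scale (limma adjusted p = 0.01). KIF15, the kinesin-12 motor that can hold the spindle open beside KIF11, measured 139.8, 158 and 177 with menthol, against 239.9, 231 and 261 with vehicle. It fell by 0.63 ± 0.10 (adjusted p = 0.0028), more than KIF11 on the point estimate, with 95% intervals of -0.86 to -0.40 for KIF15 and -0.55 to -0.19 for KIF11 that overlap. KIFC1, the minus-end-directed motor that focuses poles and clusters extra centrosomes, measured 515, 446 and 468 with menthol, against 695, 662 and 713 with vehicle. The groups lay wide apart, a decrease of 0.54 ± 0.07 (adjusted p = 0.00167).

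The chromosome-moving and end-trimming motors followed the same direction with uneven size. KIF22, the chromokinesin that pushes chromosome arms toward the equator, measured 277, 276 and 272 with menthol, against 409, 389 and 425 with vehicle, and fell by 0.57 ± 0.06 on the log2 scale (limma adjusted p = 0.000592). Its 3 menthol arrays were nearly equal. A second KIF22 probeset measured 121, 203 and 155 with menthol, against 177, 249.6 and 146 with vehicle. Its groups overlapped and it did not pass (-0.25 ± 0.25, adjusted p = 0.536 over all probesets), and with the mean of both probesets KIF22 was at -0.41 (adjusted p = 0.0337). KIF18B, a kinesin-8 that shortens astral microtubules, measured 153, 136 and 152 with menthol, against 272, 243 and 252 with vehicle, and fell by 0.80 ± 0.08 (adjusted p = 0.000328). KIF18A, its relative that damps chromosome movement at kinetochores, measured 175, 181 and 199.5 with menthol, against 238, 252 and 259.8 with vehicle, and fell by 0.43 ± 0.07 (adjusted p = 0.00406). The 95% intervals of the 2 kinesin-8 genes, -0.98 to -0.63 for KIF18B and -0.60 to -0.26 for KIF18A, did not overlap, and in both genes the menthol arrays lay below all vehicle arrays. The second KIF18B probeset gave -0.94 ± 0.09, in the direction of the one kept. KIF2C, or MCAK, takes apart microtubule ends at kinetochores and measured 433, 389.9 and 458 with menthol, against 495, 522 and 532 with vehicle. It showed the smallest decrease past the threshold, 0.28 ± 0.08 (adjusted p = 0.031), and did not pass when any array except menthol replicate 3 was left out (adjusted p from 0.0549 to 0.094 in those 5 fits), nor under quantile normalization or cyclic loess (adjusted p = 0.0637 and 0.0627). KIF2B, a kinesin-13 known mainly from testis, measured 26.5, 29.4 and 33.7 with menthol, against 28.5, 33.4 and 30.8 with vehicle. These groups overlapped and it did not pass (-0.05 ± 0.10, adjusted p = 0.746).

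**Figure D2:**
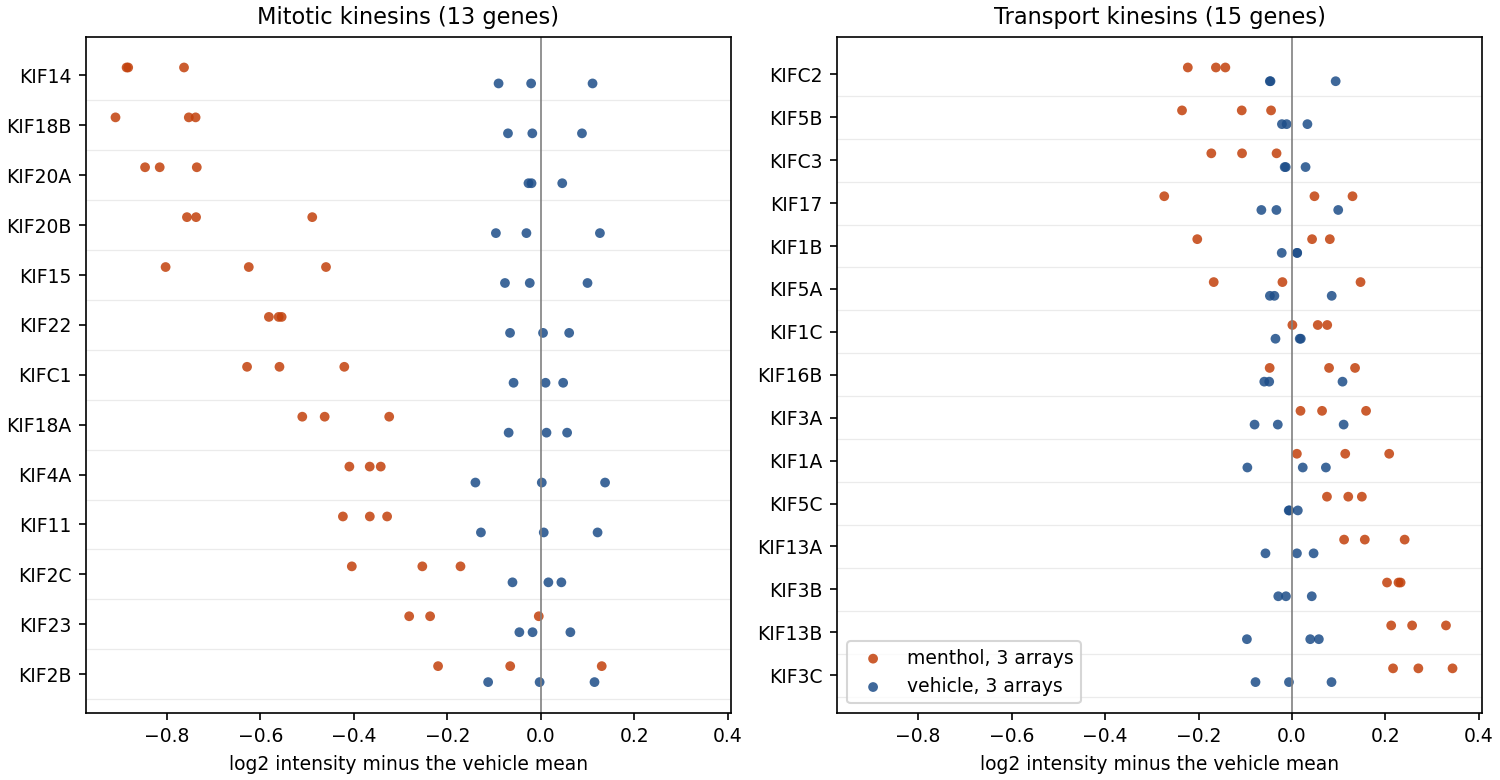
Log2 intensity of each mitotic kinesin (left panel) and transport kinesin (right panel) in each of the 6 arrays, relative to the gene's vehicle mean; upper points of a row are the 3 menthol arrays and lower points the 3 vehicle arrays. In 11 of 13 mitotic rows the menthol points lie left of all vehicle points, and in the right panel the groups overlap in 7 of 15 rows.

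Transport kinesins did not share the decrease. Of 15 measured, 0 passed as lower and 3 as higher, and the median log2 fold change was 0.06. Over all genes 14.5% were called lower and 14.6% higher. Among the brighter genes, where 11 of the 15 lie, 23.6% were lower and 17.3% higher. The count of increases is thus near the background. The 12 members that did not pass lay between -0.18 and 0.17, with 95% intervals reaching from -0.33 to 0.32 at their widest, that is from 79.5% to 125% of the vehicle level.

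The transport members that rose belong to kinesin-2 and kinesin-3. KIF3B, which pairs with KIF3A in the heterotrimeric motor of cilia, measured 242, 246 and 247 with menthol, against 216, 206 and 208 with vehicle, and rose by 0.22 ± 0.06 on the log2 scale (limma adjusted p = 0.0239). KIF3C, another partner of KIF3A, measured 192, 209 and 199 with menthol, against 175, 156 and 164 with vehicle, and rose by 0.28 ± 0.07 (adjusted p = 0.0212). KIF13B, which carries membrane proteins and the scaffold DLG1, measured 93.2, 101 and 96.2 with menthol, against 83.8, 75.3 and 82.7 with vehicle, and rose by 0.27 ± 0.07 (adjusted p = 0.0245). In all 3 genes each menthol array lay above each vehicle array, and the fold changes were 1.17 for KIF3B, 1.21 for KIF3C and 1.2 for KIF13B. Groups stood apart on the higher side in 23.5% of all genes and 26.5% of the brighter genes. The 3 genes were picked as called, so their separation adds nothing to the calls. KIF3A itself measured 133, 137 and 146 with menthol, against 124, 128 and 142 with vehicle, with overlapping groups, and did not pass (0.08 ± 0.07, adjusted p = 0.463). The 3 increases lay close to the threshold when arrays were left out: 0 of them passed without menthol replicate 2, vehicle replicate 2 or vehicle replicate 3, 1 without menthol replicate 3, 2 without vehicle replicate 1 and 3 without menthol replicate 1.

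The remaining transport motors did not pass the threshold. KIF5B, the ubiquitous kinesin-1 heavy chain that moves mitochondria and lysosomes, measured 1166, 1274 and 1331 with menthol, against 1353, 1362 and 1405 with vehicle, and its groups stood apart by a small step (-0.13 ± 0.07, adjusted p = 0.203). The neuronal kinesin-1 chains KIF5A and KIF5C lay between -0.01 and 0.11. KIF13A, which carries recycling endosomes, measured 222, 215 and 236 with menthol, against 206, 192 and 201 with vehicle, with groups apart and a log2 fold change of 0.17 ± 0.07 that missed the threshold (adjusted p = 0.09). It passed under quantile normalization and cyclic loess (adjusted p = 0.0436 and 0.0444). The vesicle motors KIF1A, KIF1B, KIF1C and KIF16B and the ciliary motor KIF17 lay between -0.03 and 0.11, and the C-terminal motors KIFC2 and KIFC3 between -0.18 and -0.10. Groups did not overlap in 3 transport members on the lower side (KIFC2, KIF5B and KIFC3) and in 5 on the higher side, beside 21.7% and 23.5% of all genes.

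Of the 13 kinesins with other or mixed roles 3 fell, 1 rose and 9 did not pass (23.1% lower and 7.69% higher, beside 14.5% and 14.6% of all genes). KIF2A, a kinesin-13 that disassembles microtubule minus ends at spindle poles and also prunes neuronal processes, measured 397, 429 and 475 with menthol, against 585, 603 and 632 with vehicle. It fell by 0.49 ± 0.08 on the log2 scale (limma adjusted p = 0.00374), a size within the range of the mitotic members. KIF27, a relative of the Hedgehog regulator KIF7, measured 59.8, 71.0 and 70.5 with menthol, against 125, 132 and 87.6 with vehicle. Vehicle replicate 3 lay well below the other vehicle arrays but still above all menthol arrays, and the decrease was 0.76 ± 0.16 (adjusted p = 0.00911). A probeset that KIF27 shares with LOC389765 gave -0.37 ± 0.11 (adjusted p = 0.0618 over all probesets, beside 0.0295 for the kept KIF27 probeset on that scale). KIF21B, which restrains microtubule growth, measured 29.9, 37.6 and 32.6 with menthol, against 44.7, 42.3 and 39.4 with vehicle, and fell by 0.34 ± 0.10 (adjusted p = 0.0317). It did not pass without menthol replicate 1 or 3 or vehicle replicate 1 or 2 (adjusted p from 0.0794 to 0.101). KIF12, a kinesin-12 gene linked to liver cholestasis, measured 58.3, 65.6 and 60.2 with menthol, against 49.9, 52.2 and 52.8 with vehicle, and rose by 0.25 ± 0.07 (adjusted p = 0.0293). It missed the threshold under cyclic loess and with a trended robust prior (adjusted p = 0.0502 and 0.0509). It passed without menthol replicate 1 and missed the threshold without each of the other arrays (adjusted p from 0.0513 to 0.0985). The 9 members that did not pass were the Hedgehog regulator KIF7, the centriole protein KIF24, the microtubule growth regulator KIF21A, and KIF6, KIF9, KIF19, KIF25, KIF26A and KIF26B. They lay between -0.12 and 0.14, and their intervals reached from -0.56 to 0.40, wider than for the transport motors.

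**Figure D3:**
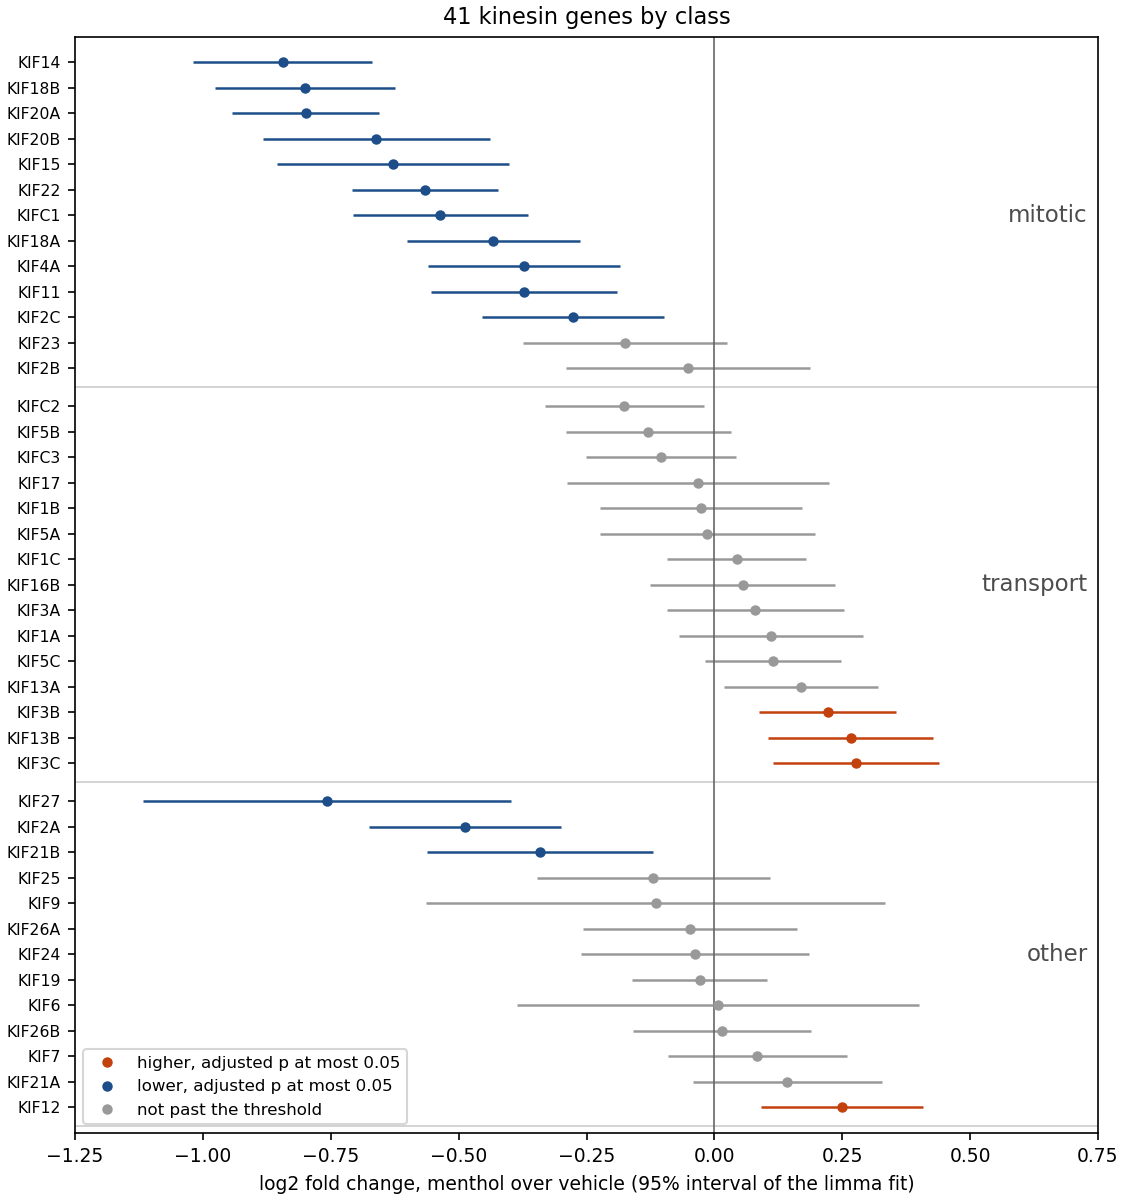
Log2 fold change of menthol over vehicle for all 41 kinesin genes in 3 classes, as points with the 95% interval of the limma fit; colours mark genes past the threshold as higher or lower. The 11 called mitotic genes lie between -0.84 and -0.28, and no transport gene lies below -0.18.

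Calls were split within several families, beside 29.1% of all genes and 40.9% of the brighter genes called in either direction. With so few genes per family, the counts are not read as results about the families. In kinesin-3, KIF14 fell while KIF13B rose, and the 5 other members did not pass. In kinesin-8, KIF18A and KIF18B fell and KIF19, a motor of cilium length, was at -0.03 ± 0.06 (adjusted p = 0.744). In kinesin-12, KIF15 fell and KIF12 rose, with 95% intervals of -0.86 to -0.40 for KIF15 and 0.09 to 0.41 for KIF12. In kinesin-14, KIFC1 fell and KIFC2, KIFC3 and KIF25 did not pass. Kinesin-6 held 2 lowered members of 3, kinesin-13 held 2 of 4 and kinesin-4 held 3 of 5 (KIF4A, KIF27 and KIF21B). The sole measured members of kinesin-5, KIF11, and of kinesin-10, KIF22, both fell. Kinesin-1, kinesin-9 and kinesin-11 held 0 called members among their 3, 2 and 2 genes.

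Each menthol array lay below each vehicle array in the contrast between the classes. Relative to each gene's mean over the 6 arrays, the median mitotic kinesin stood at -0.27, -0.28 and -0.16 on the log2 scale in menthol replicates 1, 2 and 3, against 0.28, 0.22 and 0.32 in vehicle replicates 1, 2 and 3. The median transport kinesin stood at 0.05, 0.02 and 0.06 with menthol, against -0.04, -0.03 and -0.04 with vehicle. The mitotic minus the transport median was thus between -0.33 and -0.22 in the menthol arrays and between 0.25 and 0.37 in the vehicle arrays. No test is given for these class values, since the members and classes were chosen with earlier results of these data known. Replicates also differed within a group across the class: vehicle replicate 3 was the highest vehicle array in 11 of 13 mitotic kinesins and menthol replicate 3 the highest menthol array in 8, while among transport kinesins the same arrays were highest in 5 and 6 of 15.

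**Figure D4:**
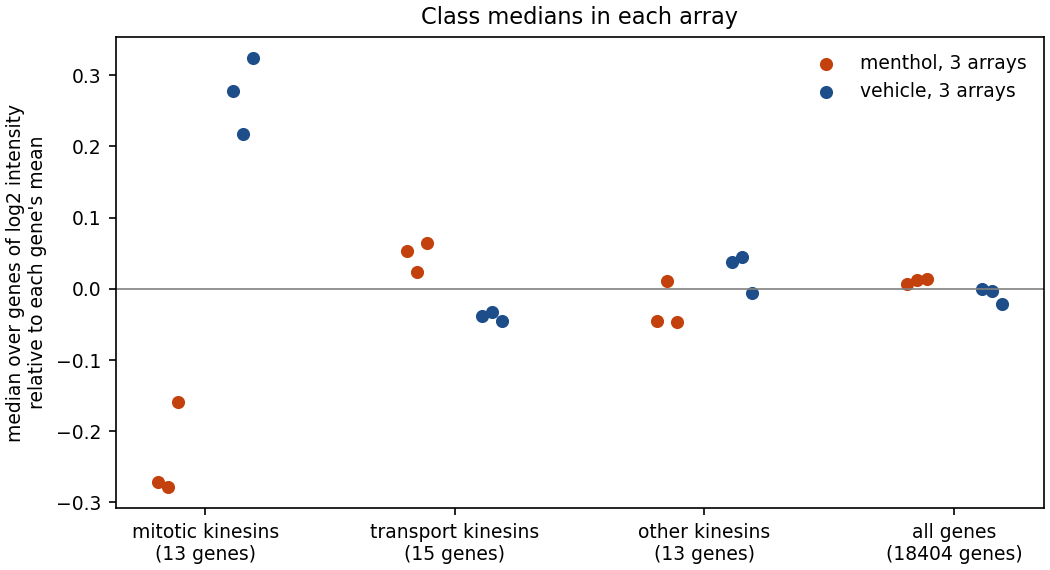
Median over the genes of a class of the log2 intensity relative to each gene's mean over the 6 arrays, with 1 point per array, menthol left and vehicle right in each class. Mitotic kinesins lie between -0.28 and -0.16 with menthol, against 0.22 and 0.32 with vehicle, while transport kinesins and all genes stay within 0.1 of 0 in all 6 arrays.

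Most genes for proteins that work with mitotic kinesins were lower as well. Of 16 listed spindle and midzone partners 13 fell and 0 rose, with a median log2 fold change of -0.46. Of all genes 14.5% fell, and of the brighter genes, among which all 16 lie, 23.6%. CENPE, itself a kinesin (kinesin-7) that carries chromosomes to the equator but outside the naming rule, measured 92.4, 101 and 116 with menthol, against 169.7, 176 and 203 with vehicle, and fell by 0.83 ± 0.11 (limma adjusted p = 0.00116). HMMR, a spindle pole adaptor, measured 189, 183 and 219 with menthol, against 386, 377 and 435 with vehicle, and PLK1, the kinase that phosphorylates several of these motors, 681, 672 and 695 with menthol, against 1328, 1373 and 1417 with vehicle. The groups of all 3, picked for their large changes, stood apart by wide margins. On the lower side groups stood apart in 14 of the 16 partners, beside 21.7% of all genes and 35% of the brighter genes. NUSAP1, which bundles spindle microtubules, fell by 0.59 ± 0.08 (adjusted p = 0.00118). RACGAP1, the partner of KIF23 in centralspindlin, was chosen after its values were seen. It measured 629, 652 and 676 with menthol, against 758, 708 and 745 with vehicle and, like KIF23, did not pass (-0.18 ± 0.06, adjusted p = 0.0721), although its groups did not overlap. The spindle pole protein NUMA1 and the furrow protein ANLN, also chosen after their values were seen, were at 0.05 ± 0.06 and 0.01 ± 0.07 and did not pass.

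Among 20 transcription regulators of mitotic genes 4 fell, 1 rose and 15 did not pass, with a median of -0.07. Over all genes 14.5% fell, and among the brighter genes, where 19 of the 20 lie, 23.6%, so the count of decreases is near the background. MYBL2, which encodes B-MYB, measured 521, 511 and 506 with menthol, against 728, 739 and 743 with vehicle, and fell by 0.52 ± 0.06 on the log2 scale (limma adjusted p = 0.000561). FOXM1, the forkhead factor of late cell cycle genes, measured 407, 396 and 395 with menthol, against 539, 503 and 518 with vehicle, and fell by 0.38 ± 0.06 (adjusted p = 0.00301). In both genes the groups stood apart, as they did on the lower side in 21.7% of all genes and 35% of the brighter genes. The NF-Y subunit NFYB fell by 0.48 ± 0.09 (adjusted p = 0.00625) and E2F4, a repressor partner of the pocket proteins, by 0.37 ± 0.06 (adjusted p = 0.0041). The gene that rose was RBL1, a pocket protein, at 0.33 ± 0.08 (adjusted p = 0.0177). It and the MuvB subunits that follow were chosen after their values were seen. LIN9, LIN37, LIN52 and LIN54 lay between -0.09 and 0.11 and did not pass.

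For the microtubule track and the opposite-directed motor the shares of calls lay near those of all genes. Among the brighter genes, where 10 of 11 tubulin genes and 16 of 17 dynein and dynactin genes lie, 23.6% were lower and 17.3% higher. Of 11 measured tubulin genes 1 rose and 2 fell (9.09% and 18.2%, beside 14.6% and 14.5% of all genes), with a median of -0.06. TUBA1A rose by 0.55 ± 0.07 on the log2 scale (limma adjusted p = 0.000945), while TUBG1, the gamma-tubulin of microtubule nucleation, fell by 0.50 ± 0.06 (adjusted p = 0.00116) and TUBB4A by 0.48 ± 0.12 (adjusted p = 0.0185). Tubulin genes are close copies, so signal may be shared between their probesets. Of 17 genes of cytoplasmic dynein and dynactin, the minus-end-directed motor, 3 rose and 3 fell (17.6% each, beside 14.6% higher and 14.5% lower over all genes), with a median of -0.0015. DYNC1I1, a dynein intermediate chain best known from neurons, had the widest change of any gene in these lists: 51.9, 57.8 and 60.4 with menthol, against 25.5, 27.5 and 25.5 with vehicle. That is a 2.16-fold rise (1.11 ± 0.08, adjusted p = 9.45e-05) with groups far apart. Groups stood apart on the higher side in 23.5% of all genes. DYNC1LI2 rose by 0.29 ± 0.07 (adjusted p = 0.0154), and DCTN6 and DYNLRB1 fell by 0.35 ± 0.07 and 0.28 ± 0.08. The other calls, read after their values were seen, were DCTN5 at 0.20 ± 0.06 (adjusted p = 0.0452) and DCTN3 at -0.20 ± 0.06 (adjusted p = 0.045).

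Of 15 accessory chains and cargo adaptors of transport kinesins 3 were higher and 3 lower, with a median of -0.10. Over all genes 14.6% were higher and 14.5% lower, and among the brighter genes, where 12 of the 15 lie, 17.3% and 23.6%. MAP7, which recruits kinesin-1 to microtubules, measured 189, 205 and 205 with menthol, against 147, 143 and 144 with vehicle, and rose by 0.46 ± 0.06 (limma adjusted p = 0.00148). TRAK2, an adaptor of mitochondria, rose by 0.32 ± 0.06 (adjusted p = 0.00584), and the light chain KLC1 by 0.27 ± 0.06 (adjusted p = 0.0158). RHOT2, the mitochondrial anchor of TRAK adaptors, measured 149.7, 169.8 and 171 with menthol, against 231, 224 and 216 with vehicle, and fell by 0.45 ± 0.07 (adjusted p = 0.00361). MAP7 and RHOT2 thus moved in opposite directions, each with groups that did not overlap. In either direction groups did not overlap in 45.3% of all genes and 61.4% of the brighter genes. RHOT1 and the light chain KLC4, chosen after their values were seen, fell by 0.26 ± 0.06 and 0.26 ± 0.06.

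**Figure D5:**
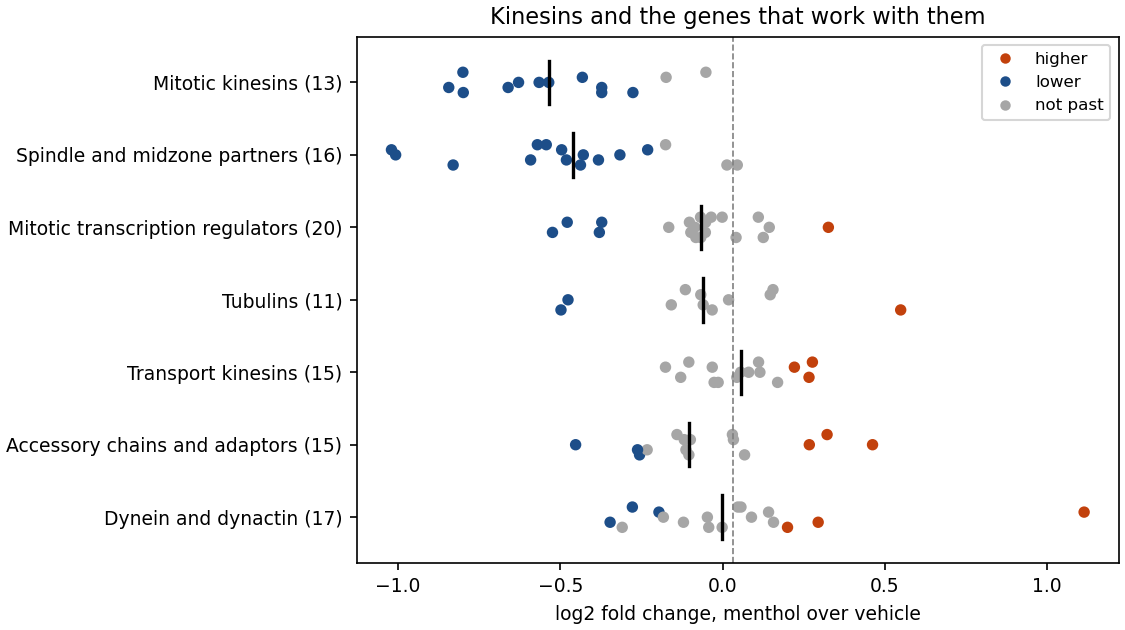
Log2 fold change of menthol over vehicle for mitotic and transport kinesins and for 5 lists of genes that work with them, with 1 point per gene, a black bar at each list's median and a dashed line at the median of all genes. Mitotic kinesins and spindle partners have medians of -0.54 and -0.46, and the other lists lie between -0.10 and 0.06.

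Further probesets existed for 4 kinesin genes, and 4 probesets were shared with another gene. The second probesets of KIFC1 and KIF5A gave -0.29 ± 0.13 and 0.02 ± 0.09 at low signal and did not pass. The probeset shared by KIF4B and KIF4A measured 127, 118 and 137 with menthol, against 187, 143 and 176 with vehicle (-0.40 ± 0.12, adjusted p = 0.0658 over all probesets). It cannot be assigned to either gene. Adjustment over all probesets is stricter than that over genes. Under it the kept probesets of the called genes KIF2C, KIF21B, KIF12 and KIF13B also missed the threshold. Their limma adjusted p was 0.0664, 0.0707, 0.0619 and 0.0544, in that order.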

How the data were processed

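RNA of PC-3 cells was hybridised to 6 Affymetrix whole-transcript arrays, 3 per group. The authors deposited linear intensity values, made with RMA per the submitters' processing notes, and 300 ng of RNA was labelled per array. The RMA version is not given in the sources used here. Intensities were taken to log2, with no filter on low values. Of the probesets, 19158 had 1 gene symbol in the platform annotation and 1388 had several, and the brightest probeset on average stood for its gene (18404 genes). All 41 kinesin symbols were found by Entrez identifier in the GRCh38.p14 gene table. Menthol was set against vehicle in limma 3.58.1 under R 4.3.3 (lmFit and eBayes with no further term). The two-sided p-values were adjusted by Benjamini-Hochberg over all genes, at a threshold of 0.05. The number of arrays limits the precision: exact permutation over 3 and 3 arrays reaches no p below 0.1. Promoters and figures used Python 3.11.15 and matplotlib 3.10.9. Members, classes and lists were chosen with earlier results of these data known. Values were given for all kinesins past the threshold, for at most 6 others, and up to 4 genes per list with the largest change past it. The alternatives were quantile, equal-median and cyclic loess normalization, a dim-gene filter at the 25th percentile, the mean of a gene's probesets, an offset of 16, a trended robust prior, weights per array, the replicate block, and each array left out once.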

Additional observations from a re-analysis of the deposited data

How the results depend on the processing

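Over the 15 alternatives, 12 to 15 kinesins were called lower and 10 to 12 of the mitotic kinesins, with 0 mitotic kinesins higher and 0 transport kinesins lower in each. Of the 11 mitotic calls, 10 were kept in every alternative, and KIF2C was kept in 8 of 15. The median of the mitotic kinesins moved to -0.47 under cyclic loess and to -0.41 with the mean of all probesets of a gene, and lay between -0.57 and -0.49 with each array left out. The median of the transport kinesins was 0.092 under quantile normalization, 0.035 with equal array medians and 0.075 under cyclic loess, and between 0.040 and 0.088 with each array left out. The cause of these shifts was not tested. Leaving out single arrays gave 0 to 4 kinesins higher, and 0 to 3 transport kinesins. With the replicate block, 1 kinesin was higher (KIF12) and 0 transport kinesins (limma adjusted p = 0.0549 for KIF3B, 0.057 for KIF13B and 0.0526 for KIF3C), while 14 kinesins and 11 mitotic kinesins were lower, equal in number to the fit without it, and 4868 genes passed in place of 5353. Over all genes, same-numbered arrays did not deviate together (correlations of deviations between -0.01 and 0.09 over 3 pairs). For 1 of the 3 numbers the arrays correlated best with each other, so the numbers are not taken as pairs. These correlations do not describe the mitotic kinesins by themselves. There, replicate 3 was the highest array of its group in 8 of 13 genes with menthol and 11 of 13 with vehicle. Background signal was not analysed here, so how far it limits the dimmer kinesins is not known.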
